A study of Mus musculus with 24 samples.

Results

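The 10 genes described here, taken by symbol from 54235 features of a single-cell RNA series, are Aqp4, Kcnj10, Gja1, Gjb6, Aldoc, Slc7a10, Dio2, Ntsr2, Fgfr3 and Grin2c. All 10 were found, and each was followed in astrocyte-like cells of mouse motor cortex and dorsal striatum, in ependymal-like cells and in progenitors. The series profiled both regions by droplet-based 3′ RNA sequencing after mice learned a forelimb reaching task, and asks how the cells of each region change with learning. Cortical mice carried Fos-CreER and Ai9, and striatal mice Arc-CreER and Ai9: a tamoxifen-activated recombinase is made where Fos or Arc is induced, and the Ai9 allele then switches on tdTomato. Early mice were trained for 2 days and late mice for 8 days, control mice received 4-hydroxytamoxifen without training, and all tissue was taken 3 days after labelling. Each region and stage had 2 pools of 2 mice, with a library from each hemisphere, so that a region had 6 pools. The labels name these pools as the replicates, and p-values measure the spread between them. Since every cortical mouse was Fos-CreER and every striatal mouse Arc-CreER, a difference between regions and a difference between driver lines cannot be told apart.

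Astrocytes keep the fluid around neurons stable: they take up potassium through inward rectifier channels, move water through aquaporin at the endfeet that wrap vessels, and share solutes through gap junctions built of connexins. They also supply neurons with lactate, serine and active thyroid hormone. These jobs are carried by genes that mature astrocytes express strongly and that neural stem cells and ependymal cells, their relatives around the ventricle, hold to differing degrees.

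Of the 10 genes, 5 were lower in striatal than in cortical astrocyte-like cells, by 1.55 to 2.95-fold, and 5 did not pass the test. Of all genes tested, 23.5% were called, 11.2% lower in striatum. The 5 lower genes were Dio2, Gjb6, Slc7a10, Kcnj10 and Fgfr3. Within the pairs of related function, Gjb6 was lower and its partner connexin Gja1 was not called, and Kcnj10 was lower while Aqp4, its neighbour at the endfoot, was not called. A separate cluster with high Gfap and Thbs4 held 854 of the 2966 striatal cells, with low levels of most members. Without it, 4 of the 5 lower genes still passed and Fgfr3 did not, beside 9.65% of all genes tested, 5.07% lower in striatum.

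The promoters of the 4 genes that were lower with and without that cluster are printed here with that of Gja1, the connexin that was not called. Each window runs from 250 bases before to 50 bases after the start site annotated by RefSeq on GRCm38.p6, 5′ to 3′ on the strand of the gene, with bases of searched motifs in capitals. Windows were found for 9 members (11 windows). Dio2 lies on chr12:90738989-90739288 (minus strand), Gjb6 on chr14:57133562-57133861 (minus), Gja1 on chr10:56377050-56377349 (plus), Slc7a10 on chr7:35186135-35186434 (plus) and Kcnj10 on chr1:172340960-172341259 (plus).

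Dio2: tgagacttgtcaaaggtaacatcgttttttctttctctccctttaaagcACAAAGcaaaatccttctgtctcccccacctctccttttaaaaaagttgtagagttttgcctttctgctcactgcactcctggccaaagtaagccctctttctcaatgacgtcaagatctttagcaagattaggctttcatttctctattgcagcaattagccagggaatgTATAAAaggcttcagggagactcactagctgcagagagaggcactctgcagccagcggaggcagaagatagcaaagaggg

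Kcnj10: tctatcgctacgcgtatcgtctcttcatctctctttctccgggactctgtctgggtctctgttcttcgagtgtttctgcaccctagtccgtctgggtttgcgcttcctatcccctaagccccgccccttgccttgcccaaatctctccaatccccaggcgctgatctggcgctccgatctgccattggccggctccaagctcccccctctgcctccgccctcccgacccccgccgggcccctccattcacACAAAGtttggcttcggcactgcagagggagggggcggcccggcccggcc

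Gjb6: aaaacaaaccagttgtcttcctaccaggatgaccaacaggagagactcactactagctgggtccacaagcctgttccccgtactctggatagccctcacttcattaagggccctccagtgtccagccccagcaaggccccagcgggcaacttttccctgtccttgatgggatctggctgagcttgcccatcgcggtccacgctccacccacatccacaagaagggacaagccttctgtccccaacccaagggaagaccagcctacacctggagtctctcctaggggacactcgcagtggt

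Gja1: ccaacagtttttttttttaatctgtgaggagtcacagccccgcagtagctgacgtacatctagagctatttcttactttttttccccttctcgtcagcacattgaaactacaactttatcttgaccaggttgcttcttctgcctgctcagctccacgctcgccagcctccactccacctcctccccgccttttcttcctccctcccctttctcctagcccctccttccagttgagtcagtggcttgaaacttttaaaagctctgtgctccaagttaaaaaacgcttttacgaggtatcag

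Slc7a10: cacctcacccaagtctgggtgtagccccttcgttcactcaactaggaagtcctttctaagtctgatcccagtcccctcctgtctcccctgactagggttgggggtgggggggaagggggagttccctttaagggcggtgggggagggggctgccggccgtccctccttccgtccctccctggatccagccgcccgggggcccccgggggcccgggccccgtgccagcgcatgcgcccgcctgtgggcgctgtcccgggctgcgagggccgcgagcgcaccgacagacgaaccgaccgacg

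The motifs searched on both strands were the nuclear factor I short site TTGGCA and full site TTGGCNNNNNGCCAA, which share the letters TTGGC, the SOX motifs ACAATG and ACAAAG, the STAT motif TTCNNNGAA and the TATA box TATAAA. The window of Dio2 held ACAAAG from 201 bases before the start site and a TATA box from 30 bases before it. That of Kcnj10 held ACAAAG at the first transcribed base. Of 32851 windows of 300 bases, 18.7% held ACAAAG and 13.6% held TATAAA. The windows of Gjb6, Gja1, Slc7a10, Fgfr3 and Grin2c held none of the letters searched. Among the others, 1 window of Aldoc held TTGGCA from 146 bases before its start and the other held the STAT letters from 124 and 83 bases before, and the window of Ntsr2 held them from 62 bases before. The STAT letters were in 8.30% of all windows, TTGGCA in 14.1%, ACAATG in 12.6% and the full site in 0.0365%. A match of letters is a description and not a binding site.

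Matrices of 23 of the 24 libraries were used, and the right library of control pool 1 of the striatum was not analysed here. They held 5.26e+06 to 3.05e+07 UMIs (unique molecular identifiers, 1 per captured transcript), and 98612 cells were kept with a median of 1970 to 5520 UMIs per library. Astrocyte-like cells were named from 13 other marker genes, with the 10 members left out of the clustering. There were 3020 in cortex (123 to 1706 per pool) and 2966 in striatum (225 to 770), and all 13 markers were detected in both. The summed astrocyte markers reached 22499 to 32093 CPM (UMIs of a gene scaled to 1e+06 UMIs of the astrocyte-like cells of a pool) in cortical pools and 16334 to 28712 in striatal pools. Ependymal markers summed to 31.1 to 75.9 in cortex, with Tmem212, Ccdc153 and Pifo at 0, and to 99.4 to 375 in striatum. The part of such RNA in the results was not tested.

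Some pools stood apart. In cortical early pool 2, Gfap reached 1129 and Vim 1248 CPM in astrocyte-like cells, against Gfap of 28.3 to 72.1 in the other 5 cortical pools. In cortical control pool 1, 10 microglial markers summed to 2837, against a median of 169 over cortical pools. In striatum 854 cells of the class formed the cluster led by Gfap, which encodes an intermediate filament of reactive and subventricular astrocytes, and Thbs4, which encodes a secreted thrombospondin. It made up 17.8% to 56.4% of the class per striatal pool, highest in late pool 1. Cells were clustered separately in each region, and in cortex a sub-cluster of 475 cells was led by Vim and Gfap. Of these cells 81.1% came from late pool 1, where Gfap was at 37.4 CPM over the class. A further 155 striatal cells carried markers of both spiny neurons and astrocytes, and were left unnamed and out of the class. The labels name versions 2 and 3 of the library kit, but not which library used which. Libraries fell into 2 classes, called A and B, by the barcodes they shared, and these inferred classes are used here as kit classes: per 1e+06 pairs of barcodes, libraries shared 1.31 within A, 0.261 within B and 0.024 between the classes. Class A held pool 1 of the control and late groups of both regions.

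Levels are given in CPM, as the lowest, median and highest of 6 pools. Differences are log2 values of striatum minus cortex from edgeR's quasi-likelihood test with stage and kit class as covariates and Benjamini-Hochberg adjustment over 10007 genes. The standard error given with each was derived from the difference and its F statistic. The threshold of a call was an adjusted p of 0.05. In this comparison 23.5% of all genes tested were called, 11.2% lower and 12.3% higher in striatum, with a median difference of −0.0058, and 3.31% had all 6 striatal pools below all 6 cortical pools. The 5 called members had no overlap of pools, and each gave an exact two-sided permutation p of 0.00216, the smallest that 6 pools against 6 can give. The median difference of all 10 members was −0.45, and −0.08 without the Gfap and Thbs4 cluster, where the median of all genes tested was −0.0031.

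**Figure D1:**
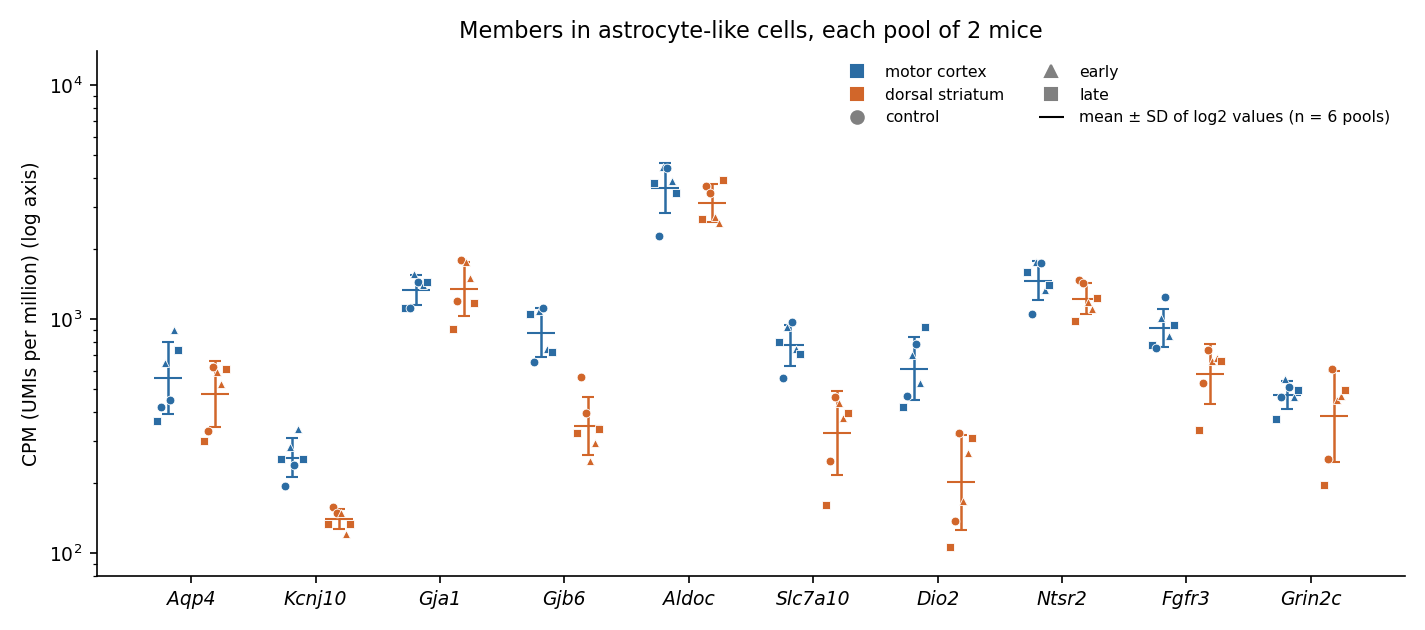
Level of each member in astrocyte-like cells, in CPM on a log axis, with 1 point per pool of 2 mice, blue for motor cortex and orange for dorsal striatum; the symbol gives the stage, and the line and bar give the mean and SD of log2 values over 6 pools. The 2 colours do not overlap for Kcnj10, Gjb6, Slc7a10, Dio2 and Fgfr3.

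Kcnj10 encodes Kir4.1, the inward rectifier through which astrocytes clear potassium (chr1:172341210-172374085, GRCm38). Its level was 193, 251 and 340 in cortical pools and 121, 141 and 158 in striatal pools. All striatal pools were below all cortical ones, and the striatal pools lay close together. The difference was −0.87 ± 0.157 (adjusted p = 0.000206), or 1.83-fold lower in striatum.

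Aqp4 encodes the water channel of the endfoot, where it sits beside Kir4.1. Its level was 368, 550 and 901 in cortical pools and 300, 561 and 621 in striatal pools. The groups overlapped, with nearly equal medians, and the difference of −0.21 ± 0.167 was not called (adjusted p = 0.397). The ratio of Kcnj10 to Aqp4 UMIs was 0.343, 0.446 and 0.683 in cortical pools and 0.220, 0.244 and 0.477 in striatal pools. These ratios overlapped between the regions.

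Gja1 encodes connexin 43, the main gap junction protein of astrocytes (chr10:56377330-56402513). Its level was 1109, 1417 and 1561 in cortical pools and 908, 1345 and 1795 in striatal pools. The striatal range enclosed the cortical one, and the difference was 0.03 ± 0.155 (adjusted p = 0.911). Gjb6 encodes connexin 30, the other astrocytic connexin, which is acquired as astrocytes mature (chr14:57123303-57133611). Its level was 656, 900 and 1116 in cortical pools and 248, 332 and 564 in striatal pools, again with no overlap. The difference was −1.34 ± 0.192 (adjusted p = 1.06e-05), or 2.54-fold lower in striatum.

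With all cells of the class, the 2 connexins therefore stood in different proportions in the 2 regions. There were 0.503, 0.639 and 0.949 Gjb6 UMIs per Gja1 UMI in cortical pools and 0.142, 0.255 and 0.474 in striatal pools. The highest striatal pool was below the lowest cortical one. Without the Gfap and Thbs4 cluster this separation was lost. Striatal control pool 1 then had 745 CPM of Gjb6 and 1451 of Gja1, against 724 and 1441 in cortical late pool 2. Such a ratio compares UMIs of different transcripts and is read between regions only.

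Dio2 encodes the deiodinase that turns thyroxine into active thyroid hormone, and is made in brain by astrocytes and tanycytes (chr12:90724552-90738438). Its level was 423, 615 and 922 in cortical pools and 106, 217 and 326 in striatal pools. The highest striatal pool was below the lowest cortical one. At −1.56 ± 0.166 (adjusted p = 1.64e-07), or 2.95-fold lower in striatum, its difference was the largest of the 10. The annotated transcript Gm26512 overlaps Dio2 on the other strand, as annotated genes do at Aqp4, Slc7a10, Fgfr3 and Grin2c, and the use of strand in counting is not given in the sources used here.

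Slc7a10 encodes Asc-1, a carrier of small neutral amino acids that exchanges glycine and D-serine, the co-agonists of NMDA receptors (chr7:35186385-35201114, overlapped by Lrp3 on the other strand). Its level was 558, 772 and 969 in cortical pools and 160, 389 and 465 in striatal pools, with no overlap. The difference was −1.21 ± 0.177 (adjusted p = 1.50e-05), or 2.32-fold lower in striatum. Aldoc encodes aldolase C, the aldolase of astrocytes and of some Purkinje cells (chr11:78322968-78327781). Its level was 2271, 3837 and 4460 in cortical pools and 2577, 3092 and 3918 in striatal pools. The groups overlapped and the difference of −0.21 ± 0.183 was not called (adjusted p = 0.451).

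Fgfr3 encodes the fibroblast growth factor receptor most associated with astrocytes (chr5:33721674-33737068). Its level was 750, 892 and 1244 in cortical pools and 335, 661 and 738 in striatal pools. The 2 groups nearly touched without overlapping, and the lowest striatal value came from late pool 1, the pool with the largest share of the Gfap and Thbs4 cluster. The difference was −0.63 ± 0.153 (adjusted p = 0.00347), or 1.55-fold lower in striatum. It was the only one of the 5 calls that was lost when the kit class was left out of the fit (adjusted p = 0.0652).

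Ntsr2 encodes a neurotensin receptor that in forebrain marks astrocytes (chr12:16653382-16660227). Its level was 1054, 1492 and 1756 in cortical pools and 980, 1208 and 1465 in striatal pools. All striatal pools were below the cortical median, yet the difference of −0.26 ± 0.168 was not called (adjusted p = 0.297, exact permutation p = 0.108). Grin2c encodes an NMDA receptor subunit that is known from cerebellum and, in forebrain, from astrocytes (chr11:115249169-115267243). Its level was 372, 482 and 554 in cortical pools and 195, 459 and 614 in striatal pools. The groups overlapped, the 2 lowest striatal pools were the control and late pools numbered 1, both of kit class A, and the difference of −0.26 ± 0.165 was not called (adjusted p = 0.274).

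With all cells of the class, the regions were compared in 7 subsets (3 stages, 2 kit classes, and 2 sequencing batches that hold 1 pool of each region). Pools of the 5 called genes did not overlap, so each gene had to be lower in striatum in every subset. Only the sizes of their differences are read here. In the batch of early pool 2 the differences of mean log2 level were −1.48 for Kcnj10, −1.34 for Gjb6, −0.99 for Dio2, −0.98 for Slc7a10 and −0.31 for Fgfr3. In the batch of late pool 2 they were −1.57 for Dio2, −1.09 for Gjb6, −0.91 for Kcnj10, −0.84 for Slc7a10 and −0.51 for Fgfr3. Each of these 2 batches has 1 pool per region and gives no test. The other batches held pools of 1 region only, where region and batch cannot be told apart, and batch was not a covariate. Without the Gfap and Thbs4 cluster, Fgfr3 turned to 0.25 in the batch of early pool 2 and stood at −0.0029 in the early stage, and Gjb6 in kit class A went from −0.96 to −0.20. In the batches of early and late pool 2, Slc7a10 then stood at −0.40 and −0.41 and Dio2 at −0.60 and −1.25. Gjb6 stood at −0.75 and −0.61 and Kcnj10 at −1.58 and −0.82. With all cells, the 5 members that were not called took both signs over the 7 subsets, and Grin2c stood at −0.90 in kit class A, −0.0080 in class B and 0.0063 in the batch of early pool 2.

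The share of astrocyte-like cells with at least 1 UMI was lower in striatum for Gjb6, Dio2, Slc7a10 and Kcnj10, as were their levels. It is taken over the cells of all pools, carries no test, and is given with its value after each cell was thinned to 1000 UMIs, since the median depth was 1695 UMIs in cortex and 1903 in striatum. In cortex it leans on late pool 1, which held 1706 of the 3020 cells and had the lowest cortical levels of Aqp4 and Gja1. Gjb6 was seen in 79.6% of cortical cells (62.3% thinned) and 43.0% of striatal cells (27.5%). Dio2 was seen in 55.3% (39.2%) and 32.1% (19.8%), Slc7a10 in 73.0% (53.9%) and 48.5% (31.0%), and Kcnj10 in 34.9% (21.6%) and 24.0% (13.9%). Gja1, in contrast, was seen in 85.0% (69.7%) of cortical and 86.9% (71.4%) of striatal cells, and Aqp4 in 50.3% (32.5%) and 53.6% (36.9%). In microglia-like cells, with medians of 1821 and 1818 UMIs, shares of these 6 genes were 0.119% to 0.756%. Shares were lower in striatum for Fgfr3 too, 61.9% (44.3%) against 75.9% (58.0%), and for Ntsr2, 82.7% (65.0%) against 89.6% (76.5%). Those of Aldoc and Grin2c were slightly lower. Striatal cells outside the Gfap and Thbs4 cluster had 56.0% (36.1%) for Gjb6, 38.3% (23.3%) for Dio2 and 61.0% (39.7%) for Slc7a10. They had 24.3% (13.4%) for Kcnj10 and 77.2% (58.1%) for Fgfr3. Aqp4, at 67.6% (49.4%), was then above its cortical share.

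The striatal cluster led by Gfap and Thbs4 held less of most members than the other striatal cells of the class. Since the clusters come from the cells described, these values carry no test. Grin2c had a median of 32.1 in the cluster (range 19.6 to 49.2) against 661 (338 to 773) in the rest. Gjb6 had 52.4 (50.4 to 79.9) against 480 (326 to 745), and Fgfr3 had 120 (111 to 189) against 878 (646 to 1001).

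Slc7a10 had a median of 86.0 in the cluster (56.6 to 135) against 545 (286 to 565) in the rest. Aqp4 had 128 (42.5 to 158) against 760 (436 to 845). Ntsr2 had 556 (418 to 585) against 1569 (1418 to 1789). Dio2 was lower in the cluster as well, with 102 (41.0 to 149) against 277 (164 to 387).

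Gja1 differed less, with 942 (481 to 1150) in the cluster against 1621 (1320 to 1995). Aldoc had 2305 (1991 to 3115) against 3615 (2790 to 4295), with overlapping ranges. Kcnj10 was at about the same level in both, with 129 (115 to 153) in the cluster and 147 (113 to 171) in the rest. Both striatal populations thus lay below the lowest cortical pool for Kcnj10.

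Without that cluster, a setting chosen after seeing the data, 9.65% of 8936 genes tested were called between the regions, 5.07% lower and 4.58% higher in striatum. Dio2 (−1.18 ± 0.160, adjusted p = 1.15e-05), Kcnj10 (−0.81 ± 0.164, adjusted p = 0.00146), Gjb6 (−0.80 ± 0.185, adjusted p = 0.00459) and Slc7a10 (−0.74 ± 0.160, adjusted p = 0.00275) were again lower in striatum by edgeR's test. Pools now overlapped for 2 of them: the striatal range was 326 to 745 CPM for Gjb6, against a lowest cortical pool of 656, and 286 to 565 for Slc7a10, against 558, with 4 of 6 striatal pools below all cortical pools each time. For Dio2 and Kcnj10 all 6 were below, as for 2.1% of all genes tested. Fgfr3 came to −0.13 ± 0.142 (adjusted p = 0.668). Aqp4, Gja1, Ntsr2 and Grin2c came to 0.26, 0.31, 0.11 and 0.31, none of them called. For Aqp4, Ntsr2 and Grin2c this sign was the opposite of that in all cells. When the cortical sub-cluster led by Vim and Gfap was left out too, also chosen after seeing the data, the same 4 genes were called, and Aqp4 stood at 0.43 (adjusted p = 0.0519).

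**Figure D2:**
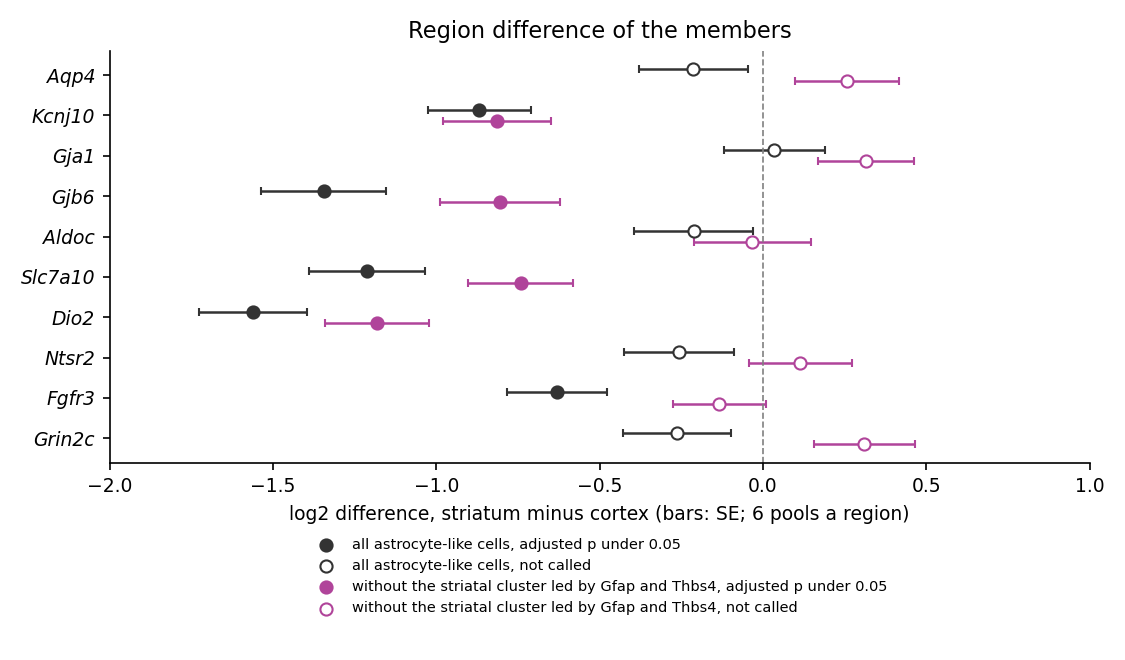
Difference between the regions for each member, as log2 of striatum minus cortex on the horizontal axis with SE bars from 6 pools a region; black points use all astrocyte-like cells, purple points leave out the striatal cluster led by Gfap and Thbs4, and filled points passed an adjusted p of 0.05. Dio2, Gjb6, Slc7a10 and Kcnj10 are filled in both, and Fgfr3 moves from −0.63 to −0.13.

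The members also varied among the other astrocyte-like cells. Sub-clusters were made within each region, again without the members, and are named by number and leading genes. In striatum, sub-cluster 3 (550 cells, led by Igfbp2 and Aldh1a1, with Unc13c and Chrdl1 among its first genes) had 488 CPM of Dio2. Sub-cluster 2 (746 cells, led by Lxn and Cxcl14, with Crym) had 195, and sub-cluster 1 (779 cells, led by Gm36944 and Amy1) had 277. The level of Dio2 in sub-cluster 3 was within the range of the cortical pools. Grin2c had 781 in sub-cluster 3 and 862 in sub-cluster 1, but 398 in sub-cluster 2.

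Gjb6 and Kcnj10 varied less over these 3 striatal sub-clusters. Gjb6 had 432 to 501 CPM and Kcnj10 131 to 159, below every cortical pool in each case. These values are sums over striatal pools. In single pools without the Gfap and Thbs4 cluster, Gjb6 reached 745 CPM, above the lowest cortical pool of 656. In cortex, sub-cluster 2 (475 cells, led by Vim and Gfap, 81.1% of them from late pool 1) had Aldoc at 5778 and Dio2 at 313, against 4134 and 779 in sub-cluster 1 (1169 cells, led by Gm42418). Over all astrocyte-like cells, Gfap was at 37.4 CPM in late pool 1 and 1129 in early pool 2. The leading genes of sub-cluster 2 therefore need not describe most of its cells. Sub-cluster 0 (1214 cells, led by Mt2 and Pde10a, 94.9% of them from late pool 1) had Aldoc at 3021 and Dio2 at 476. Cortical sub-cluster 3 (126 cells) was led by microglial genes such as Cx3cr1. Sub-clusters are sums over all pools, and their shares differed between pools.

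Ependymal-like cells, the ciliated cells that line the ventricle, were found in striatum only (956 cells in 6 pools). They held the endfoot genes and connexin 43, and almost no connexin 30. Aqp4 had 405, 659 and 973 CPM, a range that enclosed that of the striatal astrocyte-like cells outside the Gfap and Thbs4 cluster. Kcnj10 had 119, 198 and 238, which overlapped both astrocyte groups. Gja1 had 472, 604 and 768, below every pool of either astrocyte group, though the range overlapped that of the Gfap and Thbs4 cluster (481 to 1150).

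The remaining members were low or near 0 in ependymal-like cells. Aldoc had 34.3, 113 and 145, Fgfr3 had 75.5, 99.4 and 124, and Ntsr2 had 4.27, 9.60 and 20.6. Of Gjb6, Slc7a10, Dio2 and Grin2c only 4, 6, 3 and 4 UMIs were counted in all 956 cells. At least 1 UMI of Aqp4 was seen in 71.2% of ependymal-like cells, or 42.2% after each cell was thinned to 1000 UMIs, with a median depth of 3034 UMIs. In striatal microglia-like cells, which should lack these genes, the share for Aqp4 was 0.515% (0.218% thinned, median depth 1818). For Gjb6, Slc7a10, Dio2 and Grin2c the thinned shares of ependymal-like cells were 0.105% to 0.209%, against 0.0990% to 0.416% in microglia-like cells, and were read as background.

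Cycling progenitor-like cells of striatum (2694 cells, with all 7 markers including Mki67 and Top2a) held little of any member. Ntsr2 had 17.8, 23.0 and 29.1 CPM, and Gja1 had 10.5, 22.4 and 27.9. Medians were 9.11 for Fgfr3, 8.59 for Aldoc, 6.76 for Kcnj10 and 3.33 for Dio2, and Aqp4, Gjb6, Slc7a10 and Grin2c had 0 to 1.12. At least 1 UMI of Ntsr2 was seen in 7.76% of these cells (1.52% thinned) against 0.990% (0.673%) in microglia-like cells, and of Gja1 in 6.76% (1.34%) against 0.752% (0.455%).

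A striatal cluster of 1141 cells with Thrsp and Egfr among its leading genes stayed unnamed, because it carried markers of both progenitors and astrocytes. Ntsr2 had 130, 150 and 208 CPM, Aldoc 116, 140 and 228, Gja1 39.0, 65.4 and 135, and Fgfr3 26.2, 50.2 and 57.8. Each of these 4 ranges lay above that of the cycling cells and below that of the Gfap and Thbs4 cluster. Kcnj10 (18.9 to 50.3) and Dio2 (10.2 to 37.7) lay between those populations too. Medians of Aqp4, Gjb6, Slc7a10 and Grin2c were 0 to 4.31.

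Outside these cells, Kcnj10 was found along the oligodendrocyte lineage. Its median was 187 in cortical and 180 in striatal oligodendrocyte precursor-like cells, 177 and 208 in committed precursors, and 245 (2 pools) and 172 (4 pools) in oligodendrocyte-like cells. In striatum the precursors' range (129 to 207) overlapped that of the astrocyte-like cells (121 to 158), and the committed precursors (173 to 243) were above it. Aldoc (205 in cortex, 227 in striatum), Ntsr2 (54.3 and 65.5) and Slc7a10 (56.6 and 46.3) were also present in oligodendrocyte precursor-like cells, far under their astrocyte levels. Gja1 was found in fibroblast-like cells (160 in cortex, 328 in striatum) and endothelial-like cells (138 and 100.5), and Gjb6 in fibroblast-like cells (127 and 30.7).

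**Figure D3:**
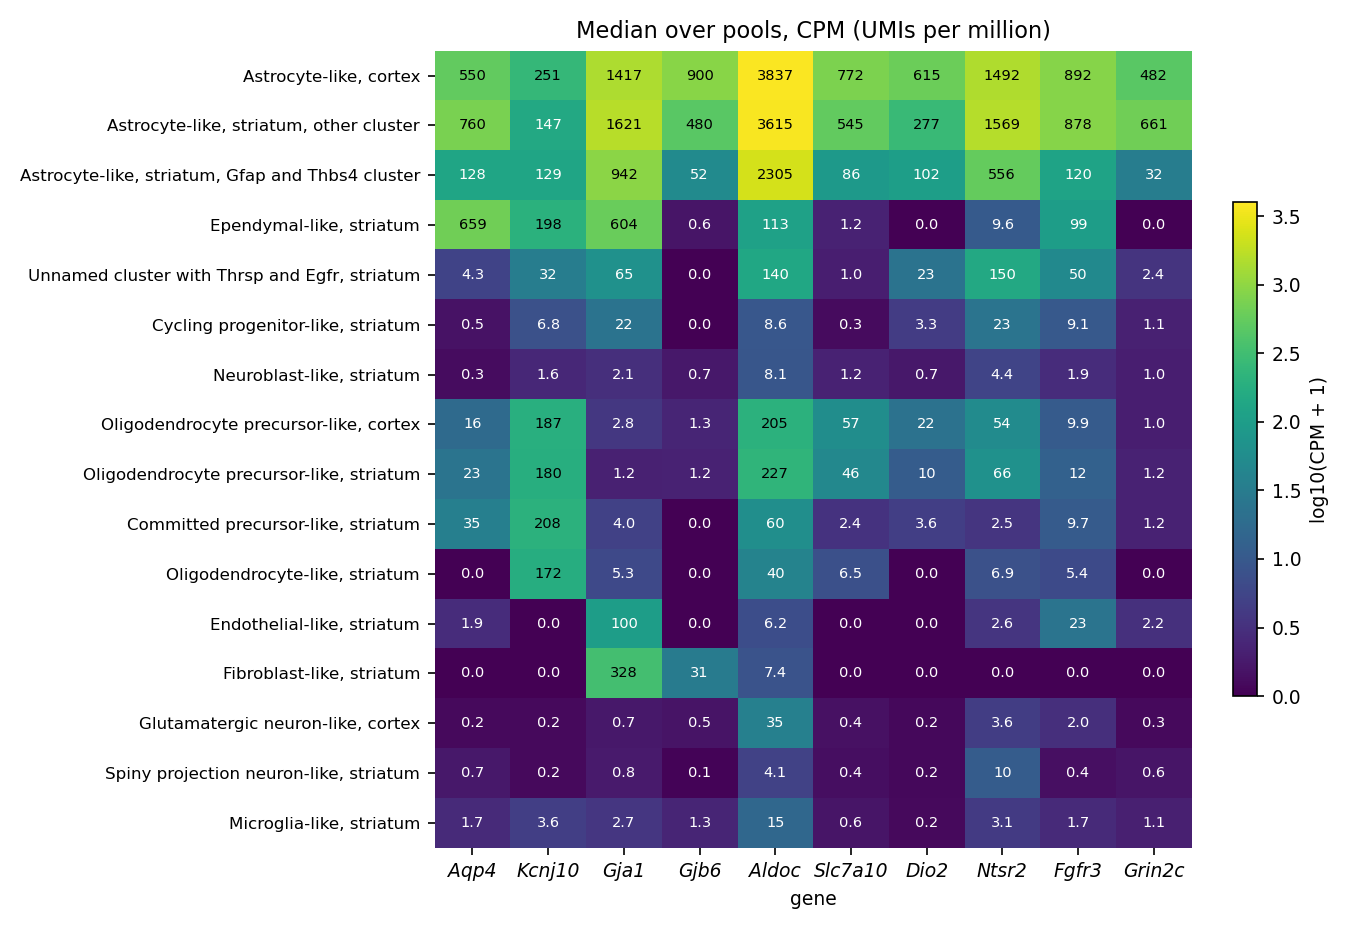
Median level over pools of each member (columns) in selected cell populations (rows), in CPM, printed in each cell and coloured on a log10 scale of the level plus 1; it is read down a column, since levels of different genes are not compared. Aqp4 and Gja1 stay high in ependymal-like cells where Gjb6, Slc7a10, Dio2 and Grin2c are near 0, and Kcnj10 is present along the oligodendrocyte lineage.

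Over 31 means of a region and class, and 15643 genes, the gene with the pattern most like each member was found by Pearson's r of log2 levels. This is a description, and the means share libraries and depths. Celrr was nearest to both Slc7a10 (r = 0.96) and Dio2 (0.94), and Ccdc190 to both Aqp4 (0.93) and Fgfr3 (0.89). Kcnj10 was nearest to S100b (0.93), a calcium-binding protein of astrocytes and oligodendrocyte lineage cells, Gja1 to Heph (0.90), which encodes the ferroxidase hephaestin, and Gjb6 to Ranbp3l (0.91). Aldoc was nearest to Frmpd1 (0.91), Ntsr2 to Gm6145 (0.91) and Grin2c to Kirrel2 (0.96). Among the members, Slc7a10 and Dio2 were most alike (r = 0.92), and Kcnj10 and Gja1 least (r = 0.23).

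Other genes of the members' pathways were counted in the same region comparison, from lists chosen with earlier results of these data known. Their counts stand beside 12.3% of all genes tested called higher and 11.2% lower in striatum, or 4.58% higher and 5.07% lower without the Gfap and Thbs4 cluster. Of 11 tested genes for water and potassium handling at endfeet, 4 were higher and 4 lower in striatum (median 0.14). Kcnj16 encodes Kir5.1, which forms channels with Kir4.1. It had medians of 66.2 in cortex and 8.48 in striatum and was lower by −2.88 ± 0.226 (adjusted p = 1.02e-09). Clcn2, a chloride channel gene, was lower (−1.24), and Slc12a2, which encodes the NKCC1 cotransporter (1.51), and Mlc1, which encodes an endfoot membrane protein (0.59), were higher. Without the Gfap and Thbs4 cluster 4 were higher and 2 lower, and these 4 genes kept their direction and call. Of 2 gap junction genes tested, Tjp1, the scaffold ZO-1, was lower (−0.56), and 0 were called without the cluster.

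Of 18 glycolysis and glycogen genes, 0 were higher and 8 lower in striatum (median −0.39), where 11.2% of all genes tested were lower. Pygm, the muscle form of glycogen phosphorylase, had medians of 111 in cortex and 22.6 in striatum (−2.34 ± 0.234, adjusted p = 6.12e-08). Its pools overlapped, with 20.5 to 158 in cortex and 14.7 to 27.9 in striatum. Pfkp, a phosphofructokinase, Eno1, an enolase, and Ldha, a lactate dehydrogenase subunit, were lower by −1.02, −1.08 and −0.89. Without the cluster 4 remained lower, among them Pygm, Eno1 and Ldha, and Pfkp was not called (adjusted p = 0.0504). Of 18 genes for amino acid transport and serine or glycine metabolism, 4 were higher and 6 lower (median −0.17). The serine synthesis genes Phgdh (1.35) and Psph (1.16) and the glutamine carrier Slc38a1 (4.75) were higher, and Slc1a4, a carrier of alanine, serine and cysteine, was lower (−0.99). Without the cluster 2 of 17 tested were higher and 3 lower, Slc38a1 was not tested and Psph was not called (adjusted p = 0.0940). Slc38a1 was among the leading genes of striatal sub-cluster 0 (836 cells), of which 819 cells belonged to the Gfap and Thbs4 cluster.

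Around Dio2, 10 genes of thyroid hormone handling were tested, of which 4 were higher and 3 lower in striatum (median −0.04). Crym encodes a thyroid hormone-binding protein and is a known mark of striatal astrocytes. It had 0, 3.35 and 26.4 CPM in cortical pools and 1016, 1223 and 1590 in striatal pools, a difference of 8.02 ± 0.354 (adjusted p = 7.91e-14). Pools of the 2 regions did not overlap. The nuclear receptor genes Rxra (1.05) and Thra (0.63) were also higher. Without the cluster 3 of 9 genes were higher, 0 were lower and Thra was not called (adjusted p = 0.269).

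Around Fgfr3, 12 genes of FGF signalling were tested, of which 10 were lower and 0 higher in striatum (median −0.78), beside 11.2% of all genes tested lower. Spry1 and Dusp6 encode feedback inhibitors of the pathway and Etv4 a transcription factor it induces. Etv4 had medians of 98.7 in cortex and 30.5 in striatum (−1.59 ± 0.201, adjusted p = 1.84e-06), and Spry1 had 23.5 and 3.14 (−3.09 ± 0.414, adjusted p = 4.54e-06). Dusp6 was lower by −0.93 and the ligand gene Fgf1 by −0.82. Without the cluster only Spry1 (−2.71) and Etv4 (−1.06) of 11 tested were called, both lower, and Dusp6 (adjusted p = 0.0694) and Fgf1 (adjusted p = 0.0514) were not. The median of the list was −0.47 in this setting, with Dusp6 at −0.50 and Fgf1 at −0.51. The share of all genes called also fell in it, from 23.5% to 9.65%.

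**Figure D4:**
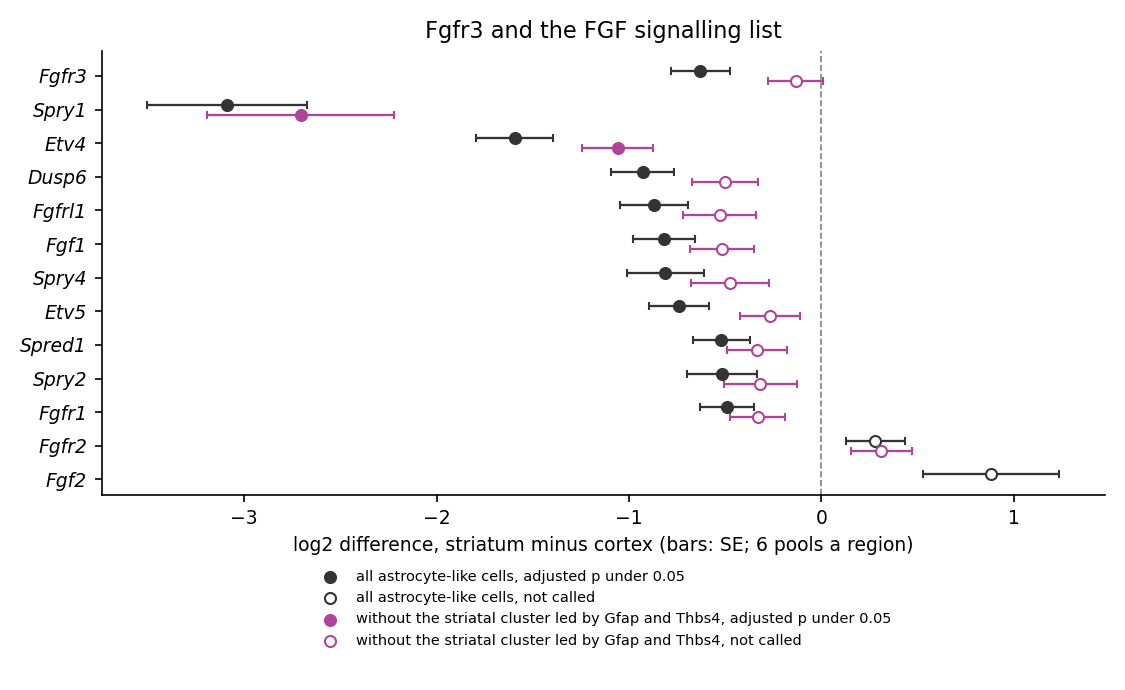
Difference between the regions for Fgfr3 and the 12 tested genes of the FGF signalling list, as log2 of striatum minus cortex on the horizontal axis with SE bars from 6 pools a region; black points use all astrocyte-like cells, purple points leave out the striatal cluster led by Gfap and Thbs4, and filled points passed an adjusted p of 0.05. Of the list, 10 genes are filled to the left of 0 in black, and Spry1 and Etv4 in purple.

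For the receptors, neither of 2 further NMDA receptor subunit genes tested was called in either setting, and Sort1, which encodes the neurotensin-binding receptor sortilin, was higher in striatum (0.63). Without the cluster Sort1 stood at 0.53 and was not called (adjusted p = 0.0598 by edgeR). Of 15 astrocyte regional genes, 5 were higher and 6 lower (5 and 5 without the cluster). Crym and Thbs4 (5.27) led those higher, and Unc13c (−2.54) and Chrdl1 (−1.58) those lower. Thbs4 leads the striatal cluster and stood at 2.64 without it. Of 5 reactive or stem-like genes tested, S100a6 (2.33), Tnc (2.45) and Nes (2.54) were higher and Hopx lower (−1.64), and without the cluster only Tnc and Hopx of 4 tested passed. Of 10 astrocyte transcription factors, Id4 (0.88), Hes5 (1.00), Nfix (0.46) and Nfia (0.44) were higher and 0 were lower, and without the cluster Id4 and Hes5 were called.

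Training stage was compared within each region by edgeR's quasi-likelihood test with the kit class as a covariate, with 2 pools per stage. No member was called in any of the 6 comparisons, by edgeR or by DESeq2. In cortex 0.0372% of 8067 genes tested were called between early and control, 0.372% between late and control and 0.0496% between late and early, and no member reached an unadjusted p under 0.05. In striatum the shares were 0.0468% of 10686 genes for early against control, 0.0468% for late against control and 0.00936% for late against early.

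In striatum several members reached an unadjusted p under 0.05 by edgeR without passing the adjustment, as did many other genes: 692 of 10686 were under 0.05 between early and control, 779 between late and control and 591 between late and early. Between early and control these were 5 members: Gjb6 (−0.70 ± 0.206, unadjusted p = 0.00298, adjusted p = 0.505 by edgeR), Dio2 (−0.66), Aldoc (−0.57), Grin2c (−0.45) and Ntsr2 (−0.42). Gjb6 had 564 and 397 CPM in the control pools, 248 and 295 in the early pools and 324 and 340 in the late pools. Both early pools were below both control and both late pools. The values of Dio2 and Grin2c moved with the covariates. Dio2 had 137 and 326 in the control pools, 166 and 267 in the early pools and 106 and 311 in the late pools, and came to −0.14 without that covariate and −0.0457 with the pool number as a block. Grin2c had 253 and 614 in the control pools and 450 and 468 in the early pools, and its sign turned, to 0.0450 without the covariate and 0.20 with the block. Aldoc had 3689 and 3466 in the control pools, 2718 and 2577 in the early pools and 2683 and 3918 in the late pools.

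These differences were sensitive to single pools. Without striatal control pool 2, Gjb6 (−1.23, adjusted p = 0.0323 by edgeR) and Aldoc (−1.12, adjusted p = 0.0101) were called, and without early pool 2, Dio2 (−1.05, adjusted p = 0.0204). Of all genes, 56 of 10901 and 47 of 11689 were called in these fits, against 5 with all pools. Between late and control, Gja1 (−0.50, unadjusted p = 0.00764 by edgeR), Gjb6 (−0.47) and Ntsr2 (−0.38) were under 0.05, and between late and early, Dio2 (0.51), Aldoc (0.44) and Gja1 (−0.40). That of Dio2 was 0.0373 without the kit covariate and −0.12 with the block. Between late and early, Aldoc came to 0.61 when control pool 1, control pool 2 or late pool 1 was left out. With the kit covariate, each of these fits compares late pool 2 with the 2 early pools, so they are not separate evidence. The sign of Aldoc turned in 1 of the 6 fits with a pool left out, to −0.12. A stage left with 1 pool is assumed in all fits with a pool left out to vary like the others. Without control pool 2, the kit difference was taken from the 2 late pools alone. Gja1 had 1191 and 1795 in the control pools, 1752 and 1500 in the early pools and 908 and 1175 in the late pools, and both late pools were below all others. Without the Gfap and Thbs4 cluster, whose share ranged from 17.8% to 56.4% per pool, Gjb6 differed from the control pools by −0.37 in the early and by −0.0575 in the late pools. In this setting, chosen after seeing the data, the median of the 10 members went from −0.35 to −0.17 between early and control, from −0.34 to −0.0484 between late and control, and from 0.0799 to 0.13 between late and early. The comparisons within a region use the same 6 pools, so they do not give separate evidence.

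A test of whether stage differences differed between the regions called 0% of 10525 genes for early against control (809 genes under an unadjusted p of 0.05 by edgeR, Kcnj10, Gjb6 and Aldoc among them, at −0.78, −0.94 and −0.91). For late against control 0.019% were called and no member, with Gja1 at −0.70 (unadjusted p = 0.0396 by edgeR). Contralateral and ipsilateral hemispheres of the trained pools were compared with the pool as a block. Here 0.0425% of 4709 genes were called in cortex and 0.0112% of 8932 in striatum, and no member by edgeR or DESeq2. Only Kcnj10 in cortex (0.30 ± 0.122, unadjusted p = 0.0194 by edgeR) was under 0.05.

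**Figure D5:**
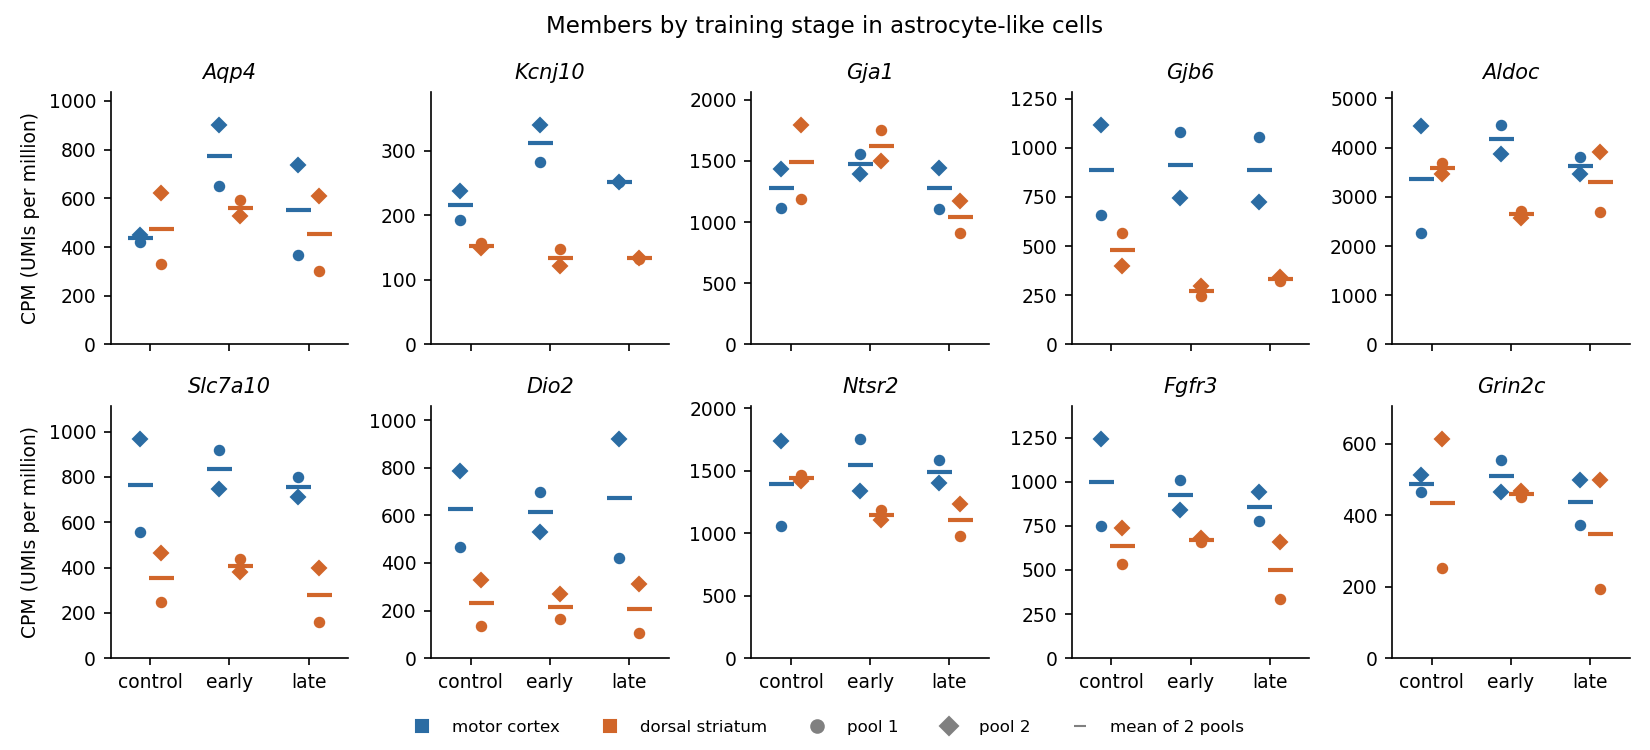
Level of each member in astrocyte-like cells by training stage, in CPM on axes that start at 0, with circles for pool 1, diamonds for pool 2 and bars for the mean of 2 pools. For Dio2, Gjb6, Slc7a10, Kcnj10 and Fgfr3 the orange striatal points lie below the blue cortical points of the same stage, and no difference between stages was called.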

How the data were processed

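The authors deposited unnormalized UMI counts, 1 matrix of genes by barcodes per library. The version is 3.0.2 in the file headers, and the submitters' processing notes name Cell Ranger 3.1.0 and GRCm38. Symbols and barcodes came from the feature and barcode lists deposited with each matrix. Cells under 500 genes, under 1000 UMIs or over 20% mitochondrial UMIs were left out. Presumed doublets (5103, 0.8% per 1000 barcodes, by Scrublet in scanpy 1.11.5) were removed. Cells of each region were clustered by the Leiden method (leidenalg 0.10.2, 2000 variable genes without the members, 40 components, resolution 1.5) and named from marker lists. UMIs were summed per pool and tested with edgeR 4.0.16 (TMM, filterByExpr). DESeq2 1.42.0 was an alternative. On simulated data of the region comparison (9675 genes), 100% of log2 changes of 1 and 15% of changes of 0.5 were recovered, with 8 false calls among the unchanged genes. Here 100 genes of each size were changed, with no differences between stages or kit classes. In the data 23.5% of genes tested were called, a larger part than was changed here, so these shares need not hold for the real comparison. Gene positions are from GENCODE M21, in which 54079 of 54235 feature IDs were found. Named genes are the 10 members, at most 4 called genes per list by smallest adjusted p, and the nearest gene of each member; some are not reported here. The members, lists and tests were chosen with earlier results of these data known.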

Additional observations from a re-analysis of the deposited data

How the results depend on the processing

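In the region comparison 5 members were called when each of the 12 pools was left out, and 4 or 5 under the other planned settings, 4 only without the kit covariate. The count of all genes called, 2351, was 1650 to 2693 with each pool left out. It was 1175 without the kit covariate, 1306 under a stricter cell filter (which left 13 cells in 1 pool) and 1039 with pool sums thinned to the smallest total. It was 862 without the Gfap and Thbs4 cluster, and 1138 when the cortical sub-cluster led by Vim and Gfap was left out too. The last 2 settings were chosen after seeing the data. Without the Gfap and Thbs4 cluster, leaving out each pool gave 517 (without motor cortex control pool 2) to 1082 genes. Signs turned for members that were not called: Aqp4 (0.26 without the cluster, 0.43 also without the cortical sub-cluster), Ntsr2 (0.11 and 0.15), Grin2c (0.31 and 0.28) and Aldoc (0.0496 in the latter). With each pool left out Gja1 ranged from −0.0205 to 0.107, and, without the cluster, Aldoc from −0.19 to 0.0455 and Ntsr2 from −0.0086 to 0.19. The cause was not tested. Members called between striatal early and control numbered 0 to 2 with each pool left out, and between late and early 0 to 1. Late against early, Aldoc ranged from −0.12 to 0.61. Early against control, Grin2c was 0.0450 without the kit covariate. With the replicate block, 2252 genes and 5 members were called between regions. The signs of Grin2c (0.20, early against control) and Dio2 (−0.12, late against early) turned in striatum, and no call of a member changed. Pools of equal number in the 2 regions correlated at 0.52 (control), −0.01 (early) and 0.77 (late). Since the early pools did not, the numbers were not taken to pair the pools; pool 1 of control and late is of kit class A in both regions. The stage comparisons rest on 2 pools a stage, and DESeq2 called 0 members in each.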
